A study of Mus musculus with 1012 samples.

Results

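A set of 8 long non-coding RNA (lncRNA) genes was followed from whole cells into cytoplasmic biopsies of living cells: Malat1, Neat1 and Kcnq1ot1, which are known to be retained in the nucleus, Meg3 and H19, which are imprinted, and Gas5, Snhg1 and Snhg12, which host small nucleolar RNAs (snoRNAs) in their introns. They were chosen by name, as 8 of the 30452 features of a single table of counts for 1012 mouse libraries. Live-seq, in which cytoplasm is drawn from a living cell with a hollow probe and amplified by an enhanced Smart-seq2 protocol, gave 296 of the libraries (29.2%). Conventional scRNA-seq by Smart-seq2, on cells that had been trypsinized, dissociated and sorted before lysis, gave 54.7%. The others were scRNA-seq libraries of cells that had or had not been sampled by Live-seq beforehand. RAW cells are RAW264.7, a macrophage-like mouse line, and were wild-type in Live-seq batch 5Reseq and elsewhere the RAW-G9 clone, which carries an mCherry reporter under the Tnf promoter and a GFP fusion of the NF-κB subunit RelA. RAW_Mock cells are labelled as not treated, and the study names PBS, a saline buffer, as their mock treatment. RAW_LPS cells had been given lipopolysaccharide (LPS), which macrophages sense as a sign of Gram-negative bacteria. Biopsies were taken 4 to 5 h after LPS, and no time was found for the whole cells. IBA is an immortalized brown preadipocyte line from the interscapular fat of male C57BL6/J mice. ASPCs are primary adipose stem and progenitor cells from subcutaneous fat of female C57BL/6J mice, taken before (ASPC_Pre) or after 2 days of (ASPC_Post) an adipogenic cocktail of dexamethasone, isobutylmethylxanthine, insulin and rosiglitazone.

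Malat1 sits in nuclear speckles, where splicing factors concentrate, and Neat1 is the scaffold on which paraspeckles are built. Kcnq1ot1 is transcribed from the paternal allele and stays at the chromosome on which it silences neighbouring imprinted genes. H19 and Meg3 are expressed from the maternal allele and are among the best known imprinted lncRNAs of mesenchymal and embryonic tissues. The spliced transcripts of the snoRNA hosts Gas5, Snhg1 and Snhg12 reach the cytoplasm, engage ribosomes and are degraded by nonsense-mediated decay, and these genes are known for the 5′ terminal oligopyrimidine (TOP) start that they share with ribosomal protein genes. How these RNAs fared in a sample of cytoplasm against a lysed cell of the same state was the question that the members were chosen for.

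Transcript ends are shown first, because the libraries were primed with oligo-dT. Mature 3′ ends of Malat1 and of long Neat1 are known to be made by RNase P cleavage in place of polyadenylation, downstream of a short genomically encoded A-rich tract. In the GENCODE vM21 transcripts (GRCm38) the motif AAAAAGCAAAA, searched on the transcribed strand, was found in 0.436% of 141767 transcripts. Among the longest annotated transcripts of the members it was found in Malat1 and Neat1 and in no other. The Malat1 window lies at chr19:5795952-5796029 on the minus strand of the single exon, short of the annotated transcript end, and the Neat1 window at chr19:5824708-5824748, also on the minus strand, reaches to the annotated end itself. Capitals mark the A-rich tract that holds the motif.
Malat1: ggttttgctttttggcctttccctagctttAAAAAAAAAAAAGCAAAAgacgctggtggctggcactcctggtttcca
Neat1: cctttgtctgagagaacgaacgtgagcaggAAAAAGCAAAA

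Start windows are shown for the TOP feature of the snoRNA hosts. In 40-base windows around the annotated transcript starts of RefSeq (GRCm38.p6), the unbroken run of C or T that covers the first base was 4 bases long in Snhg1 (chr19:8723472-8723511, plus strand), 6 in the second of 2 entries of Gas5 (chr1:161035151-161035190, plus) and 9 in Snhg12 (chr4:132308663-132308702, plus). In Malat1 (chr19:5802648-5802687, minus) it was 2, and in Kcnq1ot1, in both entries of Meg3 and in the first entry of Gas5 it was 0. Neat1 and H19 had no entry. Of 32851 windows, 13.972% had a run of at least 4, 7.248% of at least 6 and 3.032% of at least 9. Capitals mark the run.
Snhg12: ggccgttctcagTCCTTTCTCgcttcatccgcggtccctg
Gas5: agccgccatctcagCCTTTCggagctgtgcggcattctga
Snhg1: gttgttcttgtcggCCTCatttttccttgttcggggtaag
Malat1: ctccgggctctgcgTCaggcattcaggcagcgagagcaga

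Gene models differ greatly in size. The union of exons spans 93092 bases in Kcnq1ot1 (ENSMUSG00000101609, chromosome 7, unspliced, antisense within Kcnq1), 20771 in Neat1 (ENSMUSG00000092274) and 6983 in Malat1 (ENSMUSG00000092341), neighbours on chromosome 19. It spans 18089 in Meg3 (ENSMUSG00000021268, chromosome 12) and 2460 in H19 (ENSMUSG00000000031, chromosome 7). In the hosts it spans 3760 in Gas5 (ENSMUSG00000053332, chromosome 1), 2969 in Snhg1 (ENSMUSG00000108414, chromosome 19) and 2402 in Snhg12 (ENSMUSG00000086290, chromosome 4). Between 1.20% and 20.95% of these bases are shared with other annotated genes, most in the hosts, whose exon unions hold their snoRNAs. Counting took no account of strand and used the union mode, in which a read over exons of both genes goes to neither. Reads over the 121 exonic bases of Kcnq1 opposite to Kcnq1ot1 are thus left out. Reads of unspliced Kcnq1 elsewhere cannot be told apart from Kcnq1ot1, and Kcnq1 itself had a mean of 0.0 CPM over the sums. Kcnq1ot1 also holds 8 runs of 12 or more A, the longest of 41 bases, against 1 such run each in Malat1 and Snhg12, 3 in Meg3 and 0 in the others.

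Each replicate was the sum of counts over the cells of 1 state in 1 batch, of which 3 or more were required (15 for Live-seq and 12 for scRNA-seq). Levels are CPM, counts scaled to a common library size, of the counts that were kept, and are listed in the order of batches, which for Live-seq were 6, 7, 8_8 and 9_4 in RAW_Mock, 5Reseq, 6, 7, 8_8 and 9_4 in RAW_LPS, 7, 8_8 and 9_4 in IBA, 8_8 and 9_4 in ASPC_Pre and 9_4 in ASPC_Post. For scRNA-seq they were 8_8, 9_1 and scRNA in RAW and IBA, 8_8 and 9_1 in ASPC_Pre and 9_1 in ASPC_Post. Only batch 8_8 holds both techniques. Where biopsy and whole-cell sums of a state are said not to overlap, the share of all genes without overlap was not counted. With so few sums, such a separation describes the sums and is not a test. Kept counts per library had a median of 358702 in Live-seq (29276 to 1247534) and 360188.5 in scRNA-seq (28230 to 1814878), but the median number of genes detected was 4035 against 8531. Macrophage markers summed to between 2935 and 34877 CPM in RAW sums of Live-seq and between 7852 and 11048 in scRNA-seq, while mesenchymal markers were at most 5.63 CPM there. In IBA and ASPC sums the macrophage markers were at most 86.0 CPM, except for 606.8 CPM in IBA of scRNA-seq batch 9_1.

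In whole cells the members were expressed over several orders of magnitude. Per kilobase of exon union, Malat1 was the highest in every state, with a median of 223.2 CPM per kilobase in RAW_Mock (203.6 to 224.4, 3 sums). Gas5 followed at 86.1 (54.4 to 87.2) and Snhg1 at 20.4 (15.1 to 21.1), with no overlap between these neighbours. Neat1 at 6.96 (3.15 to 7.8) and Snhg12 at 4.81 (4.12 to 8.57) overlapped each other. Kcnq1ot1 was lower on this scale, at 2.16 (1.98 to 2.99), for a gene model of 93092 bases. Meg3 reached at most 0.0128, and H19 had no count. In RAW_Mock biopsies the medians per kilobase were 130.9 for Malat1, 55.2 for Gas5, 18 for Snhg1, 4.18 for Snhg12, 3.53 for Neat1 and 1.1 for Kcnq1ot1. The Malat1 sums of these biopsies ran from 0.0916 to 231.3 and so overlapped every other member that was counted there.

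Malat1 was present in cytoplasmic biopsies at levels that overlapped those of whole cells, but it varied far more between batches. In RAW_Mock its sums were 0.639, 1615, 1045 and 783.2 CPM in Live-seq and 1422, 1559 and 1567 in scRNA-seq. In RAW_LPS they were 3511, 2.84, 593.3, 404.1 and 1059.9 CPM in Live-seq and 869.2, 1389.9 and 884.8 in scRNA-seq. Both sums of Live-seq batch 6 lay near 0, and all other RAW biopsy sums were at 404.1 CPM or above. The Malat1 counts of that batch came from 1 of 8 RAW_Mock and 1 of 4 RAW_LPS biopsies, while Gas5 was counted in 6 and 2 of the same biopsies. The highest RAW_LPS sum, of the wild-type cells of batch 5Reseq, drew 83.2% of its Malat1 counts from 1 biopsy. In IBA the sums were 1265, 3079 and 5949.8 CPM in Live-seq and 2389.6, 4187 and 2441 in scRNA-seq. In ASPC_Pre they were 24.4 and 1237 CPM in Live-seq and 2204 and 1081 in scRNA-seq. ASPC_Pre biopsies of batch 8_8 were thus low in Malat1, with 98 counts in 18 biopsies of which 94.9% came from 1, whereas those of batch 9_4 were within the range of whole cells.

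Neat1, the scaffold of paraspeckles, was more often missing from a biopsy sum. It had 0, 183.3, 82.4 and 64.4 CPM in RAW_Mock biopsies and 65.4, 144.5 and 162.1 in whole cells, and 431.03, 0, 121.3, 0 and 93.8 against 140.95, 113.4 and 66.5 in RAW_LPS. Its counts were 0 in 4 of 15 Live-seq sums, those of batch 6 and the RAW_LPS and ASPC_Pre sums of batch 8_8, and above 0 in all 12 scRNA-seq sums. In IBA it had 147.4, 323.9 and 1348 CPM in biopsies and 480.8, 493.7 and 215.1 in whole cells, and in ASPC_Pre 0 and 66.6 against 550.8 and 70.3. The highest Neat1 sum among the states tested was thus a biopsy sum, that of IBA in batch 9_4.

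Kcnq1ot1 was uneven in RAW biopsies. It had 0, 359.8, 204.7 and 0 CPM in RAW_Mock and 165.8, 373.7, 70.3, 0 and 1.24 in RAW_LPS biopsies. Whole RAW cells had 201.2, 184.1 and 277.9 CPM in RAW_Mock and 472.7, 218.5 and 290.003 in RAW_LPS, all within the range from 184.1 to 472.7 CPM. Of the 9 RAW biopsy sums, 3 held no count, 1 was at 1.24 CPM and the other 5 were above 70 CPM. The RAW_LPS sum of batch 6 came from 1 biopsy. In IBA the sums were 36.6, 97 and 54.3 CPM in biopsies and 26.7, 33.9 and 27.4 in whole cells, without overlap. The IBA biopsy sums rested on few libraries, as Kcnq1ot1 was counted in 2 of 13, 2 of 14 and 4 of 17 biopsies and 1 biopsy gave 50.4, 72.3 and 39.2% of the counts. In ASPC_Pre the values were 33.2 and 3.02 and 52 and 8.84.

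Gas5, a TOP transcript that accumulates when growth is arrested, was counted in every biopsy sum tested. RAW_Mock biopsies had 235.99, 490.03, 128.1 and 179.2 CPM and whole cells 327.8, 323.9 and 204.5, and RAW_LPS biopsies had 183.4, 138.3, 241.5, 150.997 and 206.3 CPM and whole cells 355.3, 435.99 and 260.1. In RAW_LPS every biopsy sum lay below every whole-cell sum, and in RAW_Mock the sum of batch 7 was the highest of either technique, with 61.9% of its Gas5 counts from 1 biopsy. In IBA the sums were 113.3, 295.9 and 176.02 CPM in biopsies and 568.3, 491.7 and 242.2 in whole cells. In ASPC_Pre they were 133.4 and 160.1 and 201.3 and 321.4, with both biopsy sums below both whole-cell sums. How many of all genes were separated in this way was not counted.

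Snhg1 and Snhg12, the other hosts, lay lower. Snhg1 had 166.3, 52.3, 54.7 and 21 CPM in RAW_Mock biopsies and 62.6, 60.7 and 44.8 in whole cells, and 66.3, 75.2, 59.6, 8.39 and 54.9 against 71.2, 95.5 and 62.4 in RAW_LPS, with batch 8_8 low among RAW_LPS biopsies. In IBA it had 73.6, 163.6 and 30.6 CPM in biopsies and 187.005, 117.8 and 119.98 in whole cells, and in ASPC_Pre 13.2 and 18.4 against 45.5 and 25.2, where the groups did not overlap. Snhg12 ranged from 3.13 to 25.5 CPM over the RAW biopsy sums and from 8.1 to 34.1 over the whole-cell sums. In IBA it had 21.3, 14.1 and 8.53 CPM in biopsies and 34.8, 32.7 and 23.8 in whole cells, without overlap, and in ASPC_Pre 15.7 and 33.7 against 15.3 and 41.7.

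Meg3 and H19 were nearly restricted to mesenchymal cells in both techniques. Meg3 had 0 counts in all 9 RAW biopsy sums and a single count in the 6 RAW whole-cell sums, in RAW_Mock of batch 8_8. ASPC_Pre biopsies had 20.9 and 21.5 CPM and whole cells 56.9 and 21.1. IBA was more variable, with 29.7, 0 and 1.15 CPM in biopsies and 4.59, 4.96 and 13.7 in whole cells. H19 had no count in any RAW library, 10.8, 0 and 0 CPM in IBA biopsies and 0 and 0.314 in ASPC_Pre biopsies, against 0, 0 and 0.9 and 16 and 0.781 in whole cells. All H19 counts of IBA biopsies came from 1 biopsy. H19 did not pass the filter on low counts, so that 7 of the 8 genes were tested.

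**Figure D1:**
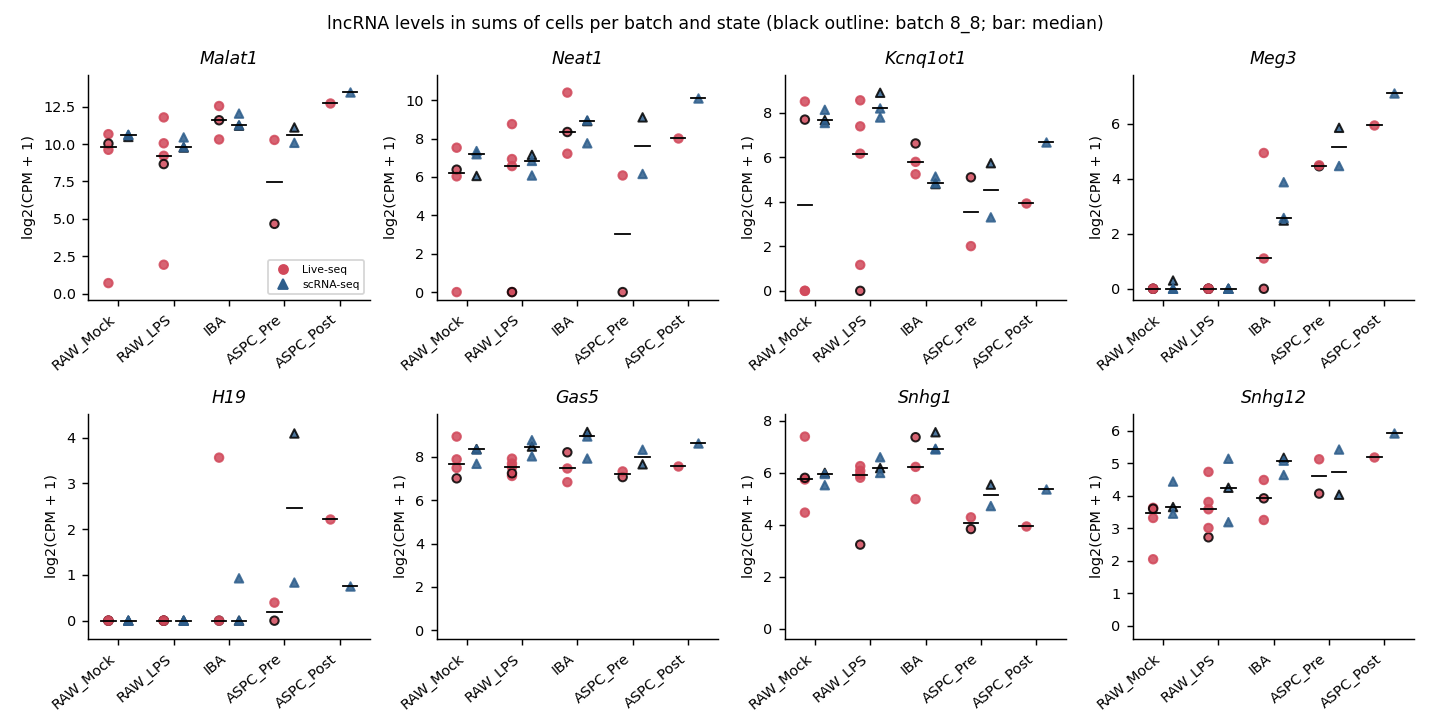
Level of each lncRNA as log2(CPM + 1) of the counts summed per batch and state, by state, for Live-seq (red circles) and scRNA-seq (blue triangles). Bars are medians over batches and black outlines mark batch 8_8, the batch with both techniques. Malat1 of Live-seq batch 6 lies at 0.639 CPM in RAW_Mock and 2.84 in RAW_LPS, far below the other sums, while Gas5 stays between 113.3 and 568.3 CPM throughout.

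Whether biopsies and whole cells differed was tested over the sums by edgeR's quasi-likelihood test with Benjamini-Hochberg adjustment over all genes, and a gene was called at an adjusted p under 0.05 and an absolute log2 fold change above 1. For the mean over RAW_Mock, RAW_LPS, IBA and ASPC_Pre, 0 of the 7 members were called, where 6 of 13603 genes (0.0441%) were. An unadjusted p under 0.05 was found for 1095 genes, of the members only Gas5, and DESeq2 called 2.27% of genes and 0 members. Live-seq against scRNA-seq, the log2 fold change was -0.72 ± 0.28 (SE) for Gas5, with an adjusted p of 0.421. It was -0.38 ± 0.72 for Malat1, -0.62 ± 0.86 for Neat1 and -0.43 ± 0.87 for Kcnq1ot1. For the other hosts it was -0.44 ± 0.44 (Snhg1) and -0.65 ± 0.49 (Snhg12). The median of all tested genes was -0.35 and moved with the scaling, to -0.21 with RLE factors and to -0.13 with DESeq2. The 95% interval of the difference reached from -1.86 to 1.096 for Malat1 and from -2.40 to 1.16 for Neat1. For Gas5 it reached from -1.31 to -0.13.

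Within single states the test called 0 of 7 members and 0 of 13603 genes (0%) in RAW_Mock, RAW_LPS, IBA and ASPC_Pre alike, with 4.56, 8.37, 4.20 and 1.4997% of genes and no member at an unadjusted p under 0.05, and with 0.97, 1.88, 1.06 and 0.529% of genes, but no member, called by DESeq2. The Malat1 differences were -0.87 ± 1.302 in RAW_Mock, 0.28 ± 1.26 in RAW_LPS, 0.23 ± 1.402 in IBA and -1.17 ± 1.74 in ASPC_Pre. Those of Gas5 were -0.20 ± 0.52, -0.94 ± 0.49, -1.05 ± 0.56 and -0.69 ± 0.68. Gas5 had a value below 0 in each of the 4 states, although in RAW_Mock its sign turned under 9 of 19 alternatives (-0.69 to 0.23). Malat1 had 2 values of each sign. Snhg12 was below 0 in the same 4 states, at -0.73, -0.83, -0.99 and -0.05 in RAW_Mock, RAW_LPS, IBA and ASPC_Pre. The median of all tested genes was below 0 in each as well, at -0.29, -0.25, -0.13 and -0.29. Gas5 in RAW_Mock lay above that median. Meg3 was at 0.35 ± 1.74 in IBA and -0.71 ± 2.14 in ASPC_Pre, and no value is given in RAW cells or for the mean, where it was at or near 0. The test of whether the technique difference itself differed between RAW cells and the mesenchymal cells called 0 of 7 members and 0 of 13603 genes (0%), with 3.82% of genes and no member at an unadjusted p under 0.05 and 1.40% of genes and 0 members by DESeq2.

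Batch 8_8 allows the comparison within a batch, with 63, 9, 14 and 18 biopsies against 16, 15, 15 and 16 whole cells of RAW_Mock, RAW_LPS, IBA and ASPC_Pre. Gas5 was lower in biopsies in 4 of 4 states, with a ratio of Live-seq to scRNA-seq levels of 0.391 (95% counting interval 0.366 to 0.418) in RAW_Mock, 0.425 (95% counting interval 0.367 to 0.491) in RAW_LPS, 0.521 (95% counting interval 0.487 to 0.557) in IBA and 0.663 (95% counting interval 0.593 to 0.74) in ASPC_Pre. These intervals cover counting error only, because copies made by PCR were not collapsed to molecules. Malat1 gave no such order, with ratios of 0.735, 0.465, 1.29 and 0.0111 in the same states. Neat1 had a ratio of 1.26 in RAW_Mock and 0.674 in IBA, and no count in biopsies of RAW_LPS (ratio at most 0.0184) and ASPC_Pre (at most 0.0017). Kcnq1ot1 ranged from no count in RAW_LPS biopsies (at most 0.0055) through 0.637 in ASPC_Pre and 1.02 in RAW_Mock to 3.63 in IBA. Snhg1 was also lower in biopsies in 4 of 4 states, with ratios of 0.874, 0.118, 0.875 and 0.291. Its counting interval in RAW_Mock reached up to 1.003. Snhg12 had ratios of 0.963, 0.312, 0.405 and 1.03. How many of all genes were lower in 4 of 4 states was not counted. With batch 8_8 alone and state as a term, the mean log2 difference was -0.87 for Gas5, -1.20 for Malat1 and -3.66 for Neat1, with adjusted p values of 0.952 by edgeR for each, and without batch 8_8 it was -0.70, -0.03 and 0.33.

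**Figure D2:**
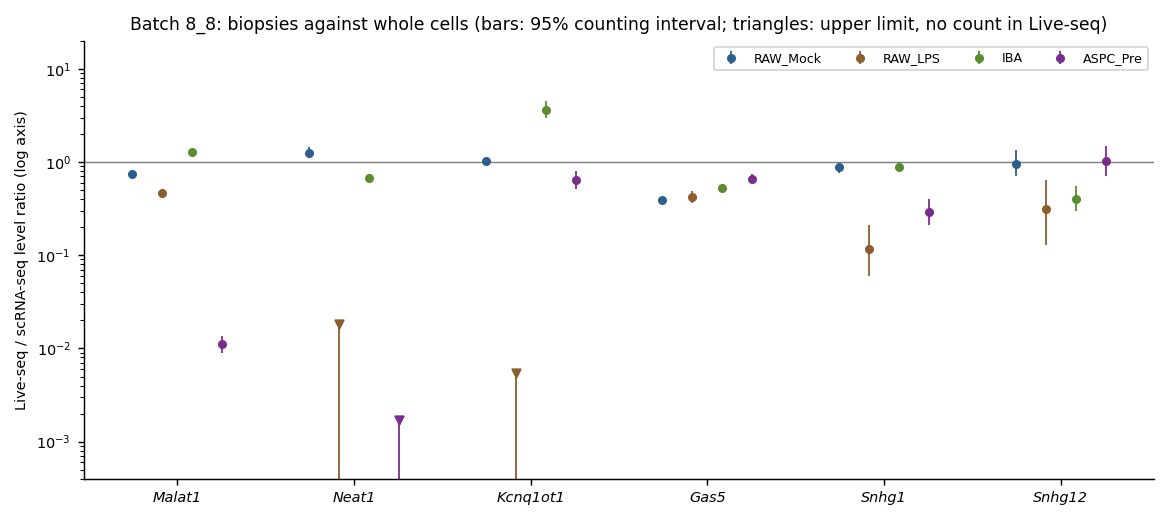
Ratio of the Live-seq to the scRNA-seq level in batch 8_8 (log axis) for 6 lncRNAs in 4 states, with 95% counting intervals. Triangles are upper limits where biopsies held no count, and the grey line is a ratio of 1. All 4 Gas5 ratios lie between 0.391 and 0.663, whereas those of Malat1 run from 0.0111 to 1.29.

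The level of the nuclear RNAs relative to the hosts was then taken within each sum, where a shared library size cancels. The summed CPM of Malat1, Neat1 and Kcnq1ot1 divided by that of Gas5, Snhg1 and Snhg12 was 0.0016, 3.9, 6.87 and 4.17 in RAW_Mock biopsies and 4.2, 4.66 and 7.74 in whole cells. In RAW_LPS it was 15.8, 1.58, 2.5, 2.45 and 4.31 in biopsies and 3.34, 3.04 and 3.75 in whole cells. In RAW_LPS the biopsy sums lay on both sides of the whole-cell sums, and in RAW_Mock the ranges overlapped, with 3 of 4 biopsy sums below the lowest whole-cell sum. In IBA the ratio was 6.96, 7.39 and 34.2 in biopsies and 3.67, 7.34 and 6.95 in whole cells, and in ASPC_Pre 0.355 and 6.16 against 10.7 and 2.99. ASPC_Post had 29.8 in biopsies and 25.2 in whole cells. Over all, Live-seq sums spanned 0.0016 to 34.2 and scRNA-seq sums 2.99 to 25.2. Within batch 8_8 the ratio was higher in biopsies for RAW_Mock (6.87 against 4.2) and IBA (7.39 against 3.67) and lower for RAW_LPS (2.45 against 3.34) and ASPC_Pre (0.355 against 10.7), so that it had no common direction.

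Single biopsies and single cells were then compared in how often a lncRNA was counted at all. To compare at 1 depth, each library was thinned to 50000 kept counts, which left out 3 Live-seq and 1 scRNA-seq libraries. The share of biopsies with a Malat1 count was then 54.9, 75.5, 72.7, 47.5 and 73% in RAW_Mock, RAW_LPS, IBA, ASPC_Pre and ASPC_Post, against 100, 98, 98.7, 66.7 and 82.9% of whole cells. These shares pool the cells of all batches, which differed in detection, and no test was run on them. For Neat1 the shares were 21.6, 30.6, 29.5, 16.4 and 37.8% of biopsies and 87.8, 69.8, 88.9, 41.7 and 60% of whole cells. For Kcnq1ot1 they were 15.7, 26.5, 18.2, 6.56 and 21.6% and 90.4, 90.6, 38.6, 21.7 and 48.6%. Unthinned, Malat1 was counted in 60.6% of RAW_Mock biopsies and 100% of whole cells, and Neat1 in 23.1% and 93.6%.

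Gas5 was closer to complete, with 63.7, 81.6, 93.2, 86.9 and 94.6% of biopsies and 100, 100, 98.7, 100 and 100% of whole cells. Snhg1 was counted in 48, 49, 72.7, 37.7 and 24.3% of biopsies and 79.5, 91.3, 95.4, 51.7 and 71.4% of whole cells, and Snhg12 in 16.7, 22.4, 27.3, 42.6 and 59.5% and 33.3, 38.9, 66, 66.7 and 68.6%. The hosts were thus also counted in fewer biopsies than whole cells in every state, as were the nuclear RNAs. Meg3 was counted in no RAW biopsy at this depth, in 4.55% of IBA, 13.1% of ASPC_Pre and 29.7% of ASPC_Post biopsies, against 13.7, 28.3 and 48.6% of whole cells. Before thinning, Meg3 also had a count of 0 in all RAW biopsies, which allows a share of up to 2.88% in RAW_Mock and 6% in RAW_LPS by the floor of 3 counts, and of up to 3.48 and 7.11% by the exact 95% interval. Both limits are on biopsies with a count, not on cells with the RNA, and cover counting error only. The smaller number of genes per biopsy moves with these shares, and its part in them was not tested.

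**Figure D3:**
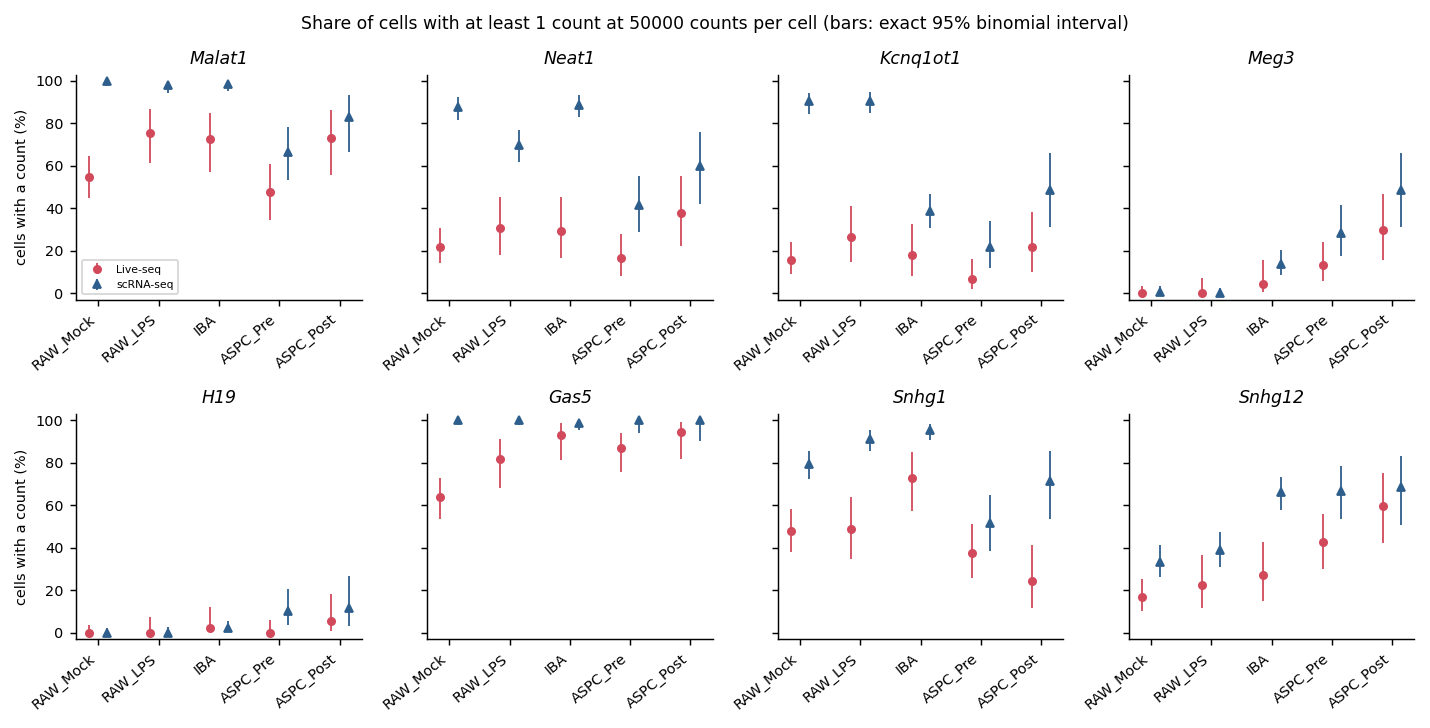
Share of libraries (%) with at least 1 count of each lncRNA after thinning to 50000 kept counts, for Live-seq (red circles) and scRNA-seq (blue triangles), with exact 95% binomial intervals that cover counting error only and leave out the spread between batches. Neat1 and Kcnq1ot1 show the widest gaps in RAW_Mock, with 21.6 against 87.8% and 15.7 against 90.4%.

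Where a biopsy did hold Malat1, it could hold a great deal. The highest single biopsies reached 24849.9 CPM in RAW_Mock, 37648 in IBA and 78192 in ASPC_Post, above the highest whole cells (5539, 22386 and 29808). The medians were 37.6, 1083 and 201.4 CPM in biopsies and 1560.1, 2199 and 3219 in whole cells. The top 10% of biopsies held 62.7, 69.5, 56, 93.5 and 67.2% of all Malat1 counts in RAW_Mock, RAW_LPS, IBA, ASPC_Pre and ASPC_Post, against 27.2, 41.2, 40.4, 64.3 and 39.9% in whole cells. Gas5 was less concentrated in biopsies of all 5 states, with 61.1, 34.1, 23.1, 34.8 and 28.3%, and 32.2, 33.8, 35.4, 30.3 and 32.1% in whole cells. Detection also differed between batches. A Malat1 count was present before thinning in all RAW and IBA biopsies of batch 9_4 but in 57.1% of RAW_Mock, 55.6% of RAW_LPS and 42.9% of IBA biopsies of batch 8_8.

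**Figure D4:**
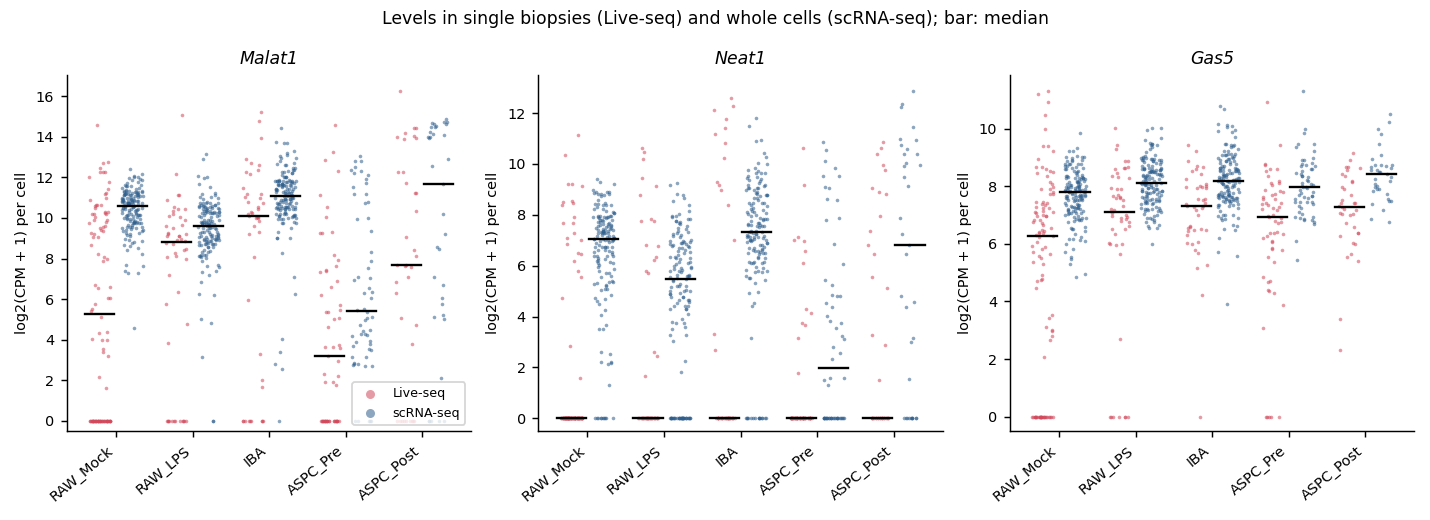
Level of Malat1, Neat1 and Gas5 in each library as log2(CPM + 1), for Live-seq (red) and scRNA-seq (blue) by state, with bars at the median and all batches pooled. Points at 0 are libraries without a count. Malat1 medians are 37.6 CPM in RAW_Mock biopsies and 1560.1 in whole cells, while single biopsies lie above the highest whole cell.

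Neat1 and Kcnq1ot1 were seldom counted in a biopsy that lacked Malat1, and as seldom in one that lacked Gas5. Of the thinned biopsies, 72 (24.6%) held both Malat1 and Neat1, 37.2% held Malat1 without Neat1, 2 biopsies held Neat1 without Malat1 and 37.5% held neither. For Kcnq1ot1 it was likewise 47 biopsies with Malat1 and 2 without it. With Gas5, a host that was counted in more biopsies, the numbers were alike, with 73 biopsies that held Neat1 and Gas5 and 1 with Neat1 alone of the pair, and with 47 that held Kcnq1ot1 and Gas5 and 2 without Gas5. Gas5 was found without Malat1 in 24.6% of biopsies and in 5.61% of whole cells. Of the whole cells, 75.9% held both Malat1 and Neat1, 18.4% Malat1 without Neat1 and 3 cells Neat1 without Malat1. Within sums of a batch and state, Spearman's rho between the thinned counts of Malat1 and Neat1 had a median of 0.549 over 11 Live-seq groups (-0.282 to 0.807) and 0.516 over 12 scRNA-seq groups (-0.0365 to 0.903). Between Malat1 and Gas5 the median rho was 0.167 in Live-seq and 0.163 in scRNA-seq, over 12 groups each. Malat1 also moved with the number of genes detected, with a median rho of 0.367 in Live-seq and 0.328 in scRNA-seq. These are descriptions over cells that share a library preparation, and they carry no p.

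Other genes of the same classes were read in the same comparison of techniques. Of 10 further nuclear lncRNAs, 8 were tested and 0 were called, with a median log2 difference of -1.04 (7 lower and 1 higher in sign) beside -0.35 for all genes. State by state their median was -0.94 in RAW_Mock, -1.74 in RAW_LPS and -1.75 in ASPC_Pre, but 0.62 in IBA (5 higher and 3 lower in sign), beside -0.29, -0.25, -0.29 and -0.13 for all genes in the same order, and 0 were called in each. Those with the highest expression were Rian, at -0.0017 ± 2.48, Pvt1, at -0.52 ± 0.69, Firre, at -1.33 ± 0.87, and Ftx, at -1.80 ± 1.03. All were low, with means over the sums of 25.6 CPM for Rian, 17.4 for Pvt1 and less for the others, so that values near the floor enter these medians. In RAW_Mock 5 were lower and 1 higher in sign, and in RAW_LPS 6 were lower and 1 higher, with the rest at a difference of 0. Of 18 further snoRNA hosts and TOP lncRNAs, 12 were tested and 0 called, with a median of -0.49, among them Zfas1 at 0.14 ± 0.57 and Snhg5 at -1.07 ± 0.67. The 10 paraspeckle protein genes, whose proteins assemble on Neat1 and whose mRNAs are cytoplasmic, had a median of 0.04 with 0 called, with Hnrnpk at 0.30 ± 0.19 and Tardbp at -0.78 ± 0.34. The 7 genes known for detained introns, which hold part of their mRNA in the nucleus, had a median of -0.35 with 0 called, with the splicing factor Srsf7 at 0.40 ± 0.26 and Ogt at -0.87 ± 0.74. Of 12 imprinted neighbours and partners, 7 were tested and 0 called, with the receptor Igf2r at -0.31 ± 0.81. Cytoplasmic housekeeping mRNAs (10 genes, median 0.08) and mitochondrially encoded mRNAs (8 of 13 tested, median -0.20) also had 0 calls.

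Differences between cell types were resolved in whole cells. In scRNA-seq, 5 of 7 members were called between IBA and RAW_Mock, where 33.7% of 13562 genes were called. Malat1 was higher in IBA by 1.05 ± 0.31 on the log2 scale (adjusted p = 0.0262), Snhg1 by 1.41 ± 0.26 (adjusted p = 0.00263) and Snhg12 by 1.304 ± 0.40 (adjusted p = 0.0295). Kcnq1ot1 was lower, at -2.76 ± 0.47 (adjusted p = 0.00202), with all 3 IBA sums below all 3 RAW_Mock sums. Meg3 was called higher in IBA (adjusted p = 0.00115), with 1 count in all RAW_Mock cells and a ratio of levels of 580.3 (95% counting interval 103.8 to 22955). Neat1 at 1.604 ± 0.65 (adjusted p = 0.0818) and Gas5 at 0.64 ± 0.23 (adjusted p = 0.0553) did not pass. The calls of Malat1, Snhg1 and Snhg12 were each lost when at least 1 batch was left out. Without batch 9_1, whose IBA sum held 606.8 CPM of macrophage markers, Malat1 was at 0.64 (adjusted p = 0.0439, under the fold limit) and Snhg12 at 1.36 (adjusted p = 0.132). Without batch scRNA the adjusted p was 0.112 for Malat1, 0.0544 for Snhg1 and 0.151 for Snhg12, and without batch 8_8 it was 0.118 for Snhg12, whereas Kcnq1ot1 was called each time.

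Between ASPC_Pre and IBA, scRNA-seq gave 1 call among 7 members, where 11.2% of the genes were called. Snhg1 was lower in ASPC_Pre, at -1.87 ± 0.31 (adjusted p = 0.00923), with sums of 45.5 and 25.2 CPM against 187.005, 117.8 and 119.98. Meg3 was at 2.94 ± 0.81 (adjusted p = 0.0577), Gas5 at -0.63 ± 0.27 (adjusted p = 0.153) and Malat1 at -0.62 ± 0.37 (adjusted p = 0.287). The Snhg1 call was lost without batch 9_1 (adjusted p = 0.115) and without batch scRNA (adjusted p = 0.0505). Of 12 other snoRNA hosts and TOP lncRNAs tested, 6 were called higher and 0 lower in IBA than in RAW_Mock (9 higher and 3 lower in sign), and 0 higher and 3 lower in ASPC_Pre than in IBA (4 higher and 8 lower in sign). Among the most highly expressed, Zfas1 was called in IBA against RAW_Mock, at 1.66 ± 0.32 (adjusted p = 0.00369), and had -1.32 ± 0.38 in ASPC_Pre against IBA (adjusted p = 0.0534). Rian, which lies in the same imprinted cluster as Meg3, was called higher in IBA than in RAW_Mock (adjusted p = 0.000705) and higher again in ASPC_Pre than in IBA, by 4.43 ± 0.73 (adjusted p = 0.0149). Of the imprinted neighbours and partners, 5 of 7 tested were called higher in IBA than in RAW_Mock, among them Igf2r at 4.46 ± 0.41 (adjusted p = 6.42e-05).

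LPS gave no call among the members in whole RAW cells, where 1.23% of the genes were called. An unadjusted p under 0.05 was found for 1975 genes, of the members only Snhg1, and DESeq2 called 5.26% of genes and 0 members. The difference between RAW_LPS and RAW_Mock was 0.60 ± 0.25 for Snhg1 (adjusted p = 0.322), 0.43 ± 0.23 for Gas5, 0.62 ± 0.45 for Kcnq1ot1 and -0.42 ± 0.31 for Malat1. Within each of the 3 batches Snhg1, Gas5 and Kcnq1ot1 were higher and Malat1 lower in the treated cells. Neat1 was higher in 1 and lower in 2, and Snhg12 higher in 2 and lower in 1. How many of all genes had a common sign in the 3 batches was not counted.

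In biopsies none of the members was called between states. IBA against RAW_Mock had 2.27% of 13462 genes called, 13.7% at an unadjusted p under 0.05 and 11.01% called by DESeq2. ASPC_Pre against IBA had 0.0223%, 3.94% and 2.05%, and RAW_LPS against RAW_Mock 0%, 4.00% and 4.76%. DESeq2 called 0 members, and at an unadjusted p under 0.05 there were Meg3 in IBA against RAW_Mock and Malat1 in ASPC_Pre against IBA. Standard errors were larger than in whole cells for each member. Malat1 was at 1.62 ± 0.90 in IBA against RAW_Mock (adjusted p = 0.502) and at -2.81 ± 1.204 in ASPC_Pre against IBA (adjusted p = 1). Snhg1 was at 1.05 ± 1.18 and -1.9998 ± 1.46 in these comparisons, the same signs as in whole cells. Kcnq1ot1 was fitted at 1.34 ± 2.71 in IBA against RAW_Mock, the opposite sign. By batch, however, it was lower in IBA biopsies in 2 of 3, as in whole cells, at -3.26 in batch 7 and -1.07 in batch 8_8. Batch 9_4, where RAW_Mock biopsies held no count, had 5.79. The sign of the fit turned under 2 of 16 alternatives (-1.10 to 5.14). Meg3 had 0 counts in RAW_Mock biopsies. Set against a floor of 3 counts over that group, its level was 145.4-fold higher in IBA and 229.1-fold higher in ASPC_Pre biopsies. The exact lower 95% limits of the ratios, for counting error only, were 117.5 and 185.5. All but 9 of the IBA counts came from 2 biopsies of batch 7, and IBA biopsies of batch 8_8 had none. Fewer cells with an RNA and less of it per cell cannot be told apart in such sums.

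**Figure D5:**
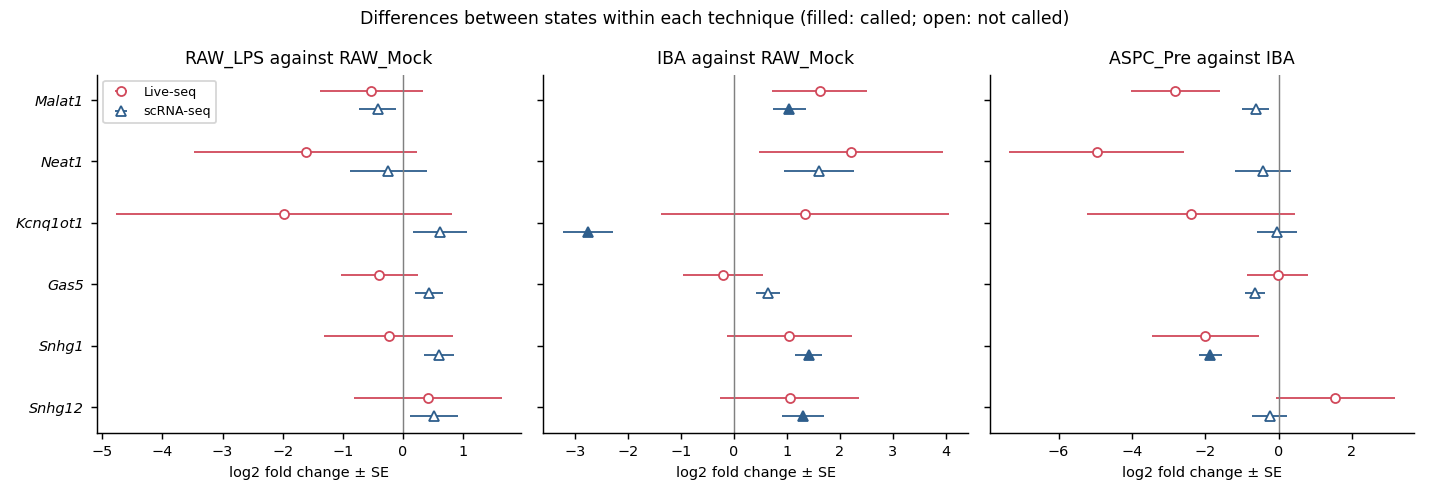
Log2 fold change (± SE) of 6 lncRNAs between states, from edgeR on sums per batch, for Live-seq (red circles) and scRNA-seq (blue triangles). Filled symbols are called. Calls are found in whole cells, with Kcnq1ot1 at -2.76 in IBA against RAW_Mock and Snhg1 at -1.87 in ASPC_Pre against IBA, and none in biopsies.

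Adipogenic induction could be followed in 1 batch per technique and was not tested. ASPC_Post had the highest Malat1 sum of each technique, 6934 CPM in biopsies of batch 9_4 against 1237 in ASPC_Pre biopsies of the same batch, and 11213 in whole cells of batch 9_1 against 1081. Neat1 had 257.9 against 66.6 CPM in biopsies and 1095 against 70.3 in whole cells. Meg3 had 60.4 against 21.5 CPM in biopsies and 137.9 against 21.1 in whole cells. Malat1, Neat1, Meg3 and Kcnq1ot1 were each higher after induction in both techniques. The median share of mitochondrial counts was also higher, at 8.20% in ASPC_Post against 2.22% in ASPC_Pre biopsies and 8.71% against 4.45% in whole cells, and its part in these values was not tested. The hosts differed less, with Gas5 at 192.5 against 160.1 CPM in biopsies and 392.6 against 321.4 in whole cells, and Snhg1 at 14.4 against 18.4 and 39.8 against 25.2. In batch 9_4, 29.99% of the ASPC_Post and 50.04% of the ASPC_Pre Malat1 counts of biopsies came from 1 biopsy each.

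By the pair numbers in the labels, 9 pairs of ASPC biopsies came from cells sampled both before and after induction. The study itself reports fewer such pairs, matched by their tracking barcodes, which were not checked here. Malat1 was higher in the second biopsy in 5 pairs and lower in 4, from 0 to 78192 CPM in the pair with the highest second value and from 1049.8 to 12.9 CPM in another. Neat1 was higher in 5 and without a count on both occasions in 4, and Kcnq1ot1 was counted in 0 first and 3 second biopsies. Gas5 was counted in all biopsies of these pairs and was higher in 6 pairs and lower in 3. Among 4 pairs of RAW biopsies around LPS, Malat1 was higher after in 1 and lower in 3, and Gas5 higher in 3 and lower in 1. For 1 of these pairs the labels give both biopsies as first extractions.

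IBA cells that had given a biopsy were profiled whole afterwards, in batch 8_1, which had 1 sum per time and no test. Malat1 was at 1864 CPM in 70 cells without sampling, 1392 in 49 cells at 1 h and 1255 in 43 cells at 4 h. Neat1 was at 345.6, 181.1 and 214.8 CPM and Kcnq1ot1 at 116.7, 45.1 and 63.4. All 3 nuclear RNAs were thus lower in the sampled cells at both times, as was the host Gas5. The median share of mitochondrial counts per cell was 4.525% at 0 h, 8.74% at 1 h and 9.01% at 4 h, and its part in these values was not tested. Gas5 was at 808.2, 648.5 and 752.5 CPM, Snhg1 at 404.1, 523.2 and 527.01 and Snhg12 at 28.2, 29.7 and 28.5. The ratio of nuclear RNAs to hosts was 1.88, 1.35 and 1.17 in the order of times. With 1 sum per time, sampling cannot be told apart from other differences between these groups of cells. The 3 IBA sums of other scRNA-seq batches ranged from 3.67 to 7.34 in the same ratio.

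Across the 27 sums of both techniques, levels as log2(CPM + 1) of Malat1 and Neat1 had a Pearson correlation of 0.891, while Malat1 had 0.212 with Kcnq1ot1, 0.336 with Gas5 and -0.0574 with Snhg1. Among all tested genes, those most like Malat1 were Asah1 (0.928), Mcoln1 and Rcn2, and those most like Neat1 were Srd5a3 (0.93), Inafm2 and Cgrrf1. For Kcnq1ot1 they were Anapc1 (0.828), Itpkb and Maco1, and for Meg3 they were Nfatc4 (0.971), Gpc4 and Rhoj. The hosts gave lower values, with Zfp94 (0.729), Hist1h3e and Fam229b for Gas5, Cenpf (0.808), Ssx2ip and Uspl1 for Snhg1, and 2410006H16Rik (0.818), Gm8292 and Nupr1 for Snhg12. The sums share batches, states and library preparation, and the correlations are given as descriptions.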

How the data were processed

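Per the labels and the study's methods, reads of Live-seq and scRNA-seq libraries, made with oligo-dT priming and without molecular identifiers, were demultiplexed with bcl2fastq 2.19.1, aligned to mm10 with STAR 2.6.1c and counted per gene with HTSeq. The authors deposited raw counts for 30452 features in 1012 libraries. The 296 Live-seq libraries among them are slightly more than the study reports as passing its quality filters. All columns mapped to a sample. Following the study, genes of ribosomal proteins (92) and those seen in negative controls (20) were removed, and the remaining counts are called kept counts. Counts were summed per batch, state and technique with at least 3 cells. The labels name no separate cultures, so p-values measure the spread between batches only. Between states, a gene was tested if at least 15% of the cells in any scRNA-seq state had at least 2 of its counts. Between techniques, the same share of cells in any state of either technique was enough. In both cases the gene also had to pass filterByExpr (minimum count 2, minimum proportion 0.05). Tests used edgeR 4.0.16 (TMM, quasi-likelihood, legacy fit) in R 4.3.3, without batch between techniques, since only batch 8_8 holds both, and with batch as a block between states, as the study did. Between techniques, sums of different states that share a batch thus entered as independent replicates, and the pairing within batch 8_8 was not used. Benjamini-Hochberg adjustment ran over all genes tested, and genes were called at an adjusted p under 0.05 and an absolute log2 fold change above 1. Alternatives used DESeq2 1.42.0 and limma 3.58.1. The 95% intervals of edgeR differences were taken from the SE, itself derived from the F statistic, and a t distribution. They reflect the spread between sums. All other intervals at 95% are exact Poisson or binomial and cover counting error only. Tables and figures were made with Python 3.11.15 (pandas 2.3.3, scipy 1.17.1, matplotlib 3.10.9). The statistics were tested on simulated data. The block follows the batch named in the labels, and the residuals of sums of the same batch correlated at 0.0786 to 0.405 in scRNA-seq and at -0.0429 to 0.251 in Live-seq.

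The members and all gene lists were chosen with earlier results of these data known. All 8 members were named, up to 4 genes of each other list by mean CPM, and the 3 genes most correlated with each member tested. Windows of sequence come from RefSeq and GENCODE vM21.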

Additional observations from a re-analysis of the deposited data

Results flagged for a closer look

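In 12 groups of at least 4 sums, the gap between an extreme sum and its neighbour was set, on the scale of log2(CPM + 1), against Dixon's 95% limit, and chance passes that limit in about 1 in 20 groups. It was passed in 2. Malat1 in Live-seq RAW_Mock of batch 6 was at 0.64 CPM, apart from the other 3 sums by 0.895 of the range (limit 0.829), and came from 1 count in 8 biopsies. Snhg1 in Live-seq RAW_LPS of batch 8_8 was at 8.39 CPM, apart from the other 4 sums by 0.852 of the range (limit 0.71), in 9 biopsies. The cause was not tested.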

How the results depend on the processing

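Between techniques, 0 members were called under every one of the 121 settings in the 6 comparisons, and 0 in the Live-seq comparisons of states. In scRNA-seq, IBA against RAW_Mock had 5 members called and between 2 and 4 when a batch was left out. ASPC_Pre against IBA had 1 member called, 3 with no filter on low counts, 2 with the edgeR 4 fit, 2 with cells sampled down to 50000 counts and between 0 and 2 when a batch was left out. The added calls were those of Meg3 (adjusted p = 0.0429, 0.0167 and 0.0486 by edgeR), with no filter, of H19, which the filter had removed, and, without batch 8_8, of Neat1 (adjusted p = 0.0438). In IBA against RAW_Mock, Neat1 passed with DESeq2 (1.57, adjusted p = 0.0292) and with no filter (adjusted p = 0.0498), and Malat1 fell under the fold limit with control and ribosomal genes kept (0.998) and with cells sampled down (0.968). Of 1298 fitted values of members, 74 changed sign, none of them called in either fit, 11 lost and 7 gained a call. The cause was not tested. Of 80 shares of cells with a count, 22 moved by more than their interval on thinning.

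Without the replicate block, the comparisons of states in scRNA-seq had 5 and 1 members called for IBA against RAW_Mock and ASPC_Pre against IBA. Snhg12 lost its call (adjusted p = 0.14) and Neat1 gained one (adjusted p = 0.0473). Between techniques, the replicate block with batch as a term gave 0 members called.

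The median of all tested genes moved with the scaling by up to 0.25 between techniques and by 0.39 between RAW_LPS and RAW_Mock in Live-seq. Over all genes, edgeR and DESeq2 differed by over 1.5 times in each comparison of techniques, of Live-seq states and of LPS in scRNA-seq. Kcnq1ot1 and Neat1 were at 0 in several Live-seq sums, where depth sets a floor of 0.166 to 2.13 CPM.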
